A study of Homo sapiens with 38 samples.

Results

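The replication-dependent histone genes were taken as every protein-coding gene on chromosomes 1 and 6 whose name starts with H1-, H2AC, H2BC, H3C or H4C followed by a digit, which gave 68 of 19970 protein-coding genes in the GENCODE 44 annotation of the human genome build hg38. Each gene had 1 promoter, the canonical transcription start site (TSS) ± 1500 bp. Protein binding was mapped by CUT&RUN, in which an antibody tethers a nuclease to its target and the DNA cut free is sequenced, and the enriched regions listed for 30 libraries were examined. Parental NCI-H661 (H661) cells come from a lung cancer of the non-small cell kind and express DPPA2 and DPPA4 endogenously. They had 1 library for DPPA2 and 1 for each of 3 DPPA4 antibodies, against the N terminus, the central region, and ab154642. The parental libraries are labelled Asynch, read here as cells not synchronized in the cell cycle. The shDPPA4 and shDPPA2+4 lines are H661 cells carrying doxycycline-inducible short hairpin RNAs against DPPA4, or against DPPA2 and DPPA4, as sorted bulk populations. Both lines were grown for 7 days with water (control) or with 2 µg/mL doxycycline, and had 1 library each for DPPA4 and RING1B in both arms and for PCGF1, MTF2 and EP300 in the water arm. NCI-H1299 (H1299), a lung cancer line that does not make DPPA2 or DPPA4, carried doxycycline-inducible Flag-DPPA2 and V5-DPPA4. This line was induced for 7 days with 2 µg/mL doxycycline in all its libraries. It had 6 antibodies with 2 replicates each. No H661 library was replicated, and differences between them therefore could not be set against replicate error. Whether replicates of H1299 were cultured separately is not given in the labels, so p-values for that line reflect only library-to-library spread, possibly technical in origin.

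DPPA2 and DPPA4 are SAP domain proteins of the early embryo. RING1B is the catalytic core of Polycomb repressive complex 1, which ubiquitinates histone H2A, and PCGF1 is the subunit that defines one of its variant forms. MTF2 is an accessory subunit of Polycomb repressive complex 2, which methylates histone H3 at lysine 27, and EP300 is a histone acetyltransferase. Replication-dependent histone genes supply the core histones H2A, H2B, H3 and H4 and the linker histone H1 when DNA is copied. They are short, lack introns, lie in clusters, are switched on in S phase by the NPAT protein in the histone locus body, and make mRNAs that end in a conserved stem-loop in place of a poly(A) tail.

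The 68 genes were made up of 6 H1, 17 H2A, 18 H2B, 13 H3 and 14 H4 genes in 5 clusters. On chromosome 6, 34 lay between 25726562 and 26285534 (H2AC1 to H4C8), 5 between 27132795 and 27147106 (H2BC11 to H2AC12) and 16 between 27807929 and 27893425 (H2BC13 to H2BC17). On chromosome 1, 11 lay between 149812370 and 149887965 (H2BC18 to H2AC21), and H2AC25 and H2BC26 started at 228457873 and 228458103. Because 12 pairs of H2A and H2B genes start back to back within 194 to 251 bp, the 68 promoters formed only 40 separate windows, and neighbours often share a region. Distinct regions are counted once where this is stated.

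The stem-loop was used to check the name rule. Within 150 bases of the annotated 3′ end, 62 of the 68 genes (91.2%) had a stem of 6 base pairs around a 4-base loop of the histone type, compared with 0.406% of all protein-coding genes. The genes without one at this end were H4C14, H4C15, H2BC21, H2AC20, H4C9 and H4C12. The form found at 39 genes, H2BC1 and H3C1 among them, and the form found at 9 genes, all of them H4 genes, are shown because this element is what defines the class. The whole element is in capitals as it reads in the DNA.
Form of 39 genes: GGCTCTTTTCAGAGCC
Form of 9 H4 genes: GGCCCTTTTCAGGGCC

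Promoters of 63 of the genes were matched by symbol in RefSeq (GRCh38.p14), from 250 bases before to 50 after the start. The TATA box letters TATAAA were present on either strand at 41 of 63 (65.1%), against 9.64% of 15315 promoters of all genes. CCAAT was present at 54 of 63 (85.7%, against 36.6%), including all 51 windows of H1, H2A, H2B and H3 genes and only 3 of 12 of H4 genes. The octamer ATTTGCAT, the site of the POU factor OCT1, was present at 14 of 18 H2B and 11 of 16 H2A promoters and at 26 of 63 in all (41.3%, against 1.70%). The promoters shown next are those of a gene bound in both cell lines (H2BC11), of a testis gene bound in no library (H2BC1), of the gene with the highest DPPA4 fold in shDPPA4 (H4C9), of an H4 gene with a region in few libraries (H4C7), of a gene bound in H661 and not in H1299 (H3C1), and of the chromosome 1 gene H2BC26. Capitals mark the TATA box letters, CCAAT, the octamer and their reverse complements, which may overlap. The match of letters is a description and not a measured binding site.
H2BC11, chr6:27132746-27133045 (minus strand): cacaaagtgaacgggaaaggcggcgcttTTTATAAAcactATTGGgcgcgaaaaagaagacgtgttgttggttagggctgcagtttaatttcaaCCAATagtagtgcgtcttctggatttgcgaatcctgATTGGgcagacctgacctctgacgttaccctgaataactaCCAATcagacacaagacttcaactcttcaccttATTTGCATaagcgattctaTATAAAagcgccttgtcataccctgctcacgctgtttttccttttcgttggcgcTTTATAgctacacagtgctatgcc
H2BC1, chr6:25726527-25726826 (plus strand): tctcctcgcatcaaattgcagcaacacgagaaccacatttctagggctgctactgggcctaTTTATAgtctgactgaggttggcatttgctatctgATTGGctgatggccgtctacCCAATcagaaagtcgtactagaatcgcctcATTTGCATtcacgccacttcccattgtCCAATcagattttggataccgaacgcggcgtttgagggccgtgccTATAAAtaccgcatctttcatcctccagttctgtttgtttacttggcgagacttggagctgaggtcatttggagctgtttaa
H4C9, chr6:27139032-27139331 (plus strand): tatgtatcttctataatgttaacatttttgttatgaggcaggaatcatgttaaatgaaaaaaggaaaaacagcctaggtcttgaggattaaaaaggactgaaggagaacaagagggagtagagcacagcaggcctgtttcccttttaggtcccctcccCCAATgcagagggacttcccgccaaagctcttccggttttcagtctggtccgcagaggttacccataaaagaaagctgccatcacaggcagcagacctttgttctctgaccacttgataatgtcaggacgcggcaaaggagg
H4C7, chr6:26246947-26247246 (minus strand): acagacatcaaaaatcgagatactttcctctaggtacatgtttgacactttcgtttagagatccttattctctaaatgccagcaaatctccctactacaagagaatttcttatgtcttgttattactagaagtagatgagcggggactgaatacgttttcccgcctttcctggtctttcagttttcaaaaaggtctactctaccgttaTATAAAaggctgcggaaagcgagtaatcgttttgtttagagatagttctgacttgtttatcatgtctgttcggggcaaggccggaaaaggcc
H3C1, chr6:26020201-26020500 (plus strand): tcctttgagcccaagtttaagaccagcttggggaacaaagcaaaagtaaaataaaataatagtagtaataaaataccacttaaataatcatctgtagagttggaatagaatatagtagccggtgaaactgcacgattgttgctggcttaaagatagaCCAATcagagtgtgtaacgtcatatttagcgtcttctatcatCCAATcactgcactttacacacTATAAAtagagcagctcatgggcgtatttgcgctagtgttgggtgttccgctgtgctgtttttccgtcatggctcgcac
H2BC26, chr1:228457853-228458152 (plus strand): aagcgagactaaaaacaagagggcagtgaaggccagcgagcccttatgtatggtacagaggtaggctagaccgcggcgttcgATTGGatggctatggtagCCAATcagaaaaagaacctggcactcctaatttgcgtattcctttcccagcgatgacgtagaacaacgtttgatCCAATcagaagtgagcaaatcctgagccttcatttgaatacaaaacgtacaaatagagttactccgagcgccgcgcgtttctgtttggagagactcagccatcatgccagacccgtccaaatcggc

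As a group, histone promoters were dense in CpG but not in GC. Over the TSS ± 500 bp the median CpG observed/expected ratio was 0.855, against 0.725 over all promoters, while the median GC content was 50.9% against 61.3%. Thus 55 of the 68 were of intermediate CpG content, 13 were CpG-rich (GC above 55% and ratio above 0.75) and 0 were CpG-poor (ratio below 0.5). Among all promoters 42.1% were CpG-rich. The H1 genes had the lowest median ratio (0.662) and the H3 genes the highest (0.878).

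DPPA2 and DPPA4 were found at most histone promoters of parental H661. A DPPA2 peak called by MACS2 (q below 0.05, fold above 2) touched 52 of 68 promoters (76.5%), compared with 46.3% of all protein-coding promoters and 48.9% of all those of intermediate CpG content. The N-terminal DPPA4 antibody marked 54 (79.4%), against a background of 47.0%, and the ab154642 antibody 59 against 50.6%. The central-region antibody, which gave the fewest peaks, marked 15 against 5.47%. Both proteins were present at 46 histone promoters (67.6%), against 39.2% of all and 40.4% of those of intermediate CpG content. These 46 comprised 4 of 6 H1, 12 of 17 H2A, 12 of 18 H2B, 11 of 13 H3 and 7 of 14 H4 promoters. Neighbours share peaks, and the 52 promoters with DPPA2 held 61 distinct DPPA2 peaks while the 54 with DPPA4 held 55 distinct DPPA4 peaks. The counts for DPPA2, for DPPA4 and for both include H4C14, H3C14, H2AC18, H2AC19, H3C15 and H4C15. These lie in a repeat on chromosome 1 where reads cannot be assigned to a single copy.

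**Figure D1:**
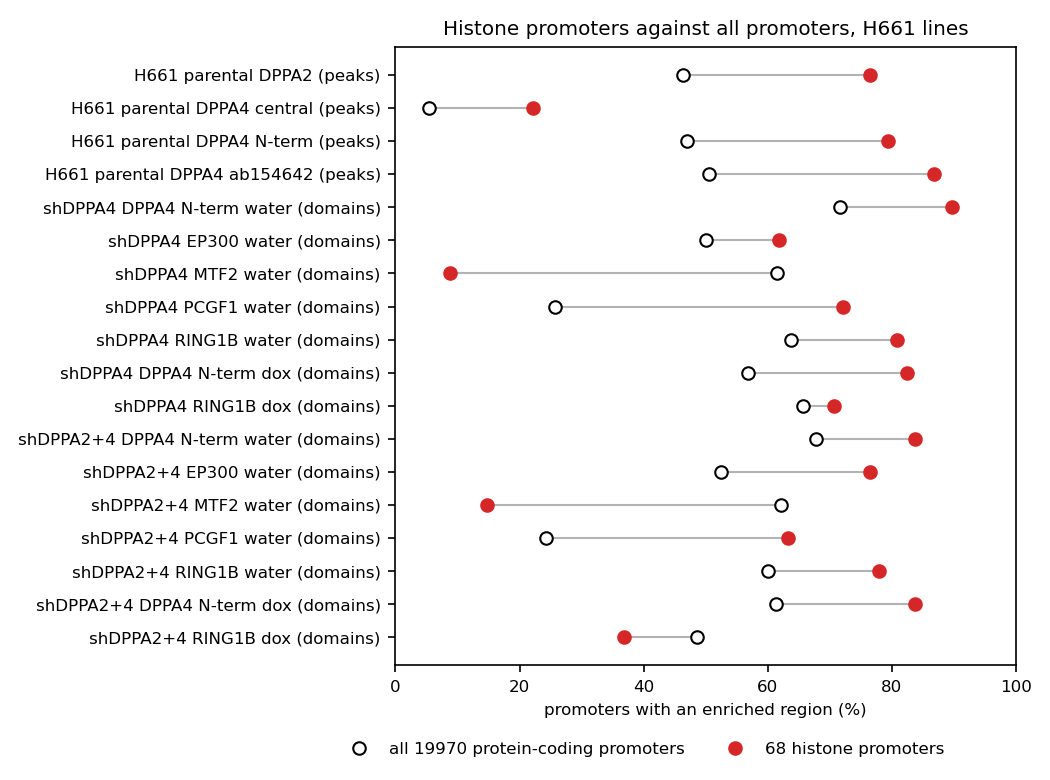
Percentage of the 68 histone promoters (red) and of all 19970 protein-coding promoters (open) with an enriched region, 1 row per H661 library, with MACS2 peaks for the parental line and EPIC2 domains for the hairpin lines. The histone share lies above the share of all promoters except for MTF2 (8.82% and 14.7%) and for RING1B in shDPPA2+4 with doxycycline.

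The peaks at histone promoters were of ordinary height. The median fold over background was 5.27 for DPPA2 and 6.29 for DPPA4 over distinct peaks at histone promoters, and 6.16 and 6.71 over peaks at all promoters. The strongest stood in the chromosome 1 cluster, where H3C14 and H2AC18 shared a DPPA2 peak 13.6-fold and a DPPA4 peak 20.9-fold over background. H2AC19 and H3C15 shared peaks of 12.5-fold and 13.7-fold. H3C14, H2AC18, H2AC19 and H3C15 lie in a repeat, and 75.6% to 100% of each window has a nearly identical copy elsewhere. Reads from such copies cannot be assigned to a single gene, so the rank of these peaks is not secure. H2AC25 and H2BC26, the back-to-back pair at the other end of chromosome 1, had 12.2-fold and 8.67-fold. On chromosome 6 the linker gene H1-3 had a DPPA2 peak of 13-fold and a DPPA4 peak of 6.04-fold, H3C12 and H2AC17 shared a DPPA2 peak of 9.06-fold, and H2BC11 and H2AC11 a DPPA4 peak of 10.9-fold. H2BC3 had 8.49-fold and 10.1-fold, and H3C7 and H2BC9 had 8.49-fold and 9.52-fold.

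By MACS2 peaks, linker histone genes divided into a bound and an unbound set in parental H661. H1-2, H1-3, H1-4 and H1-5, which encode somatic linker histones, carried both proteins, with DPPA2 folds of 4.81, 13, 5.04 and 7.93 and DPPA4 folds of 6.94, 6.04, 7.61 and 10.2. H1-1 and the testis linker gene H1-6 had no DPPA2 or DPPA4 peak with any of the 4 antibodies. Of 30 libraries, H1-1 had an EPIC2 domain in 1 and H1-6 in 4, and neither had a MACS2 peak in any. The domain at H1-1 was of DPPA4 with the central-region antibody in parental H661 (log2 fold 2.72).

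In all, 8 histone promoters had a MACS2 peak of neither protein in parental H661 (11.8%, against 45.8% of all promoters). Besides H1-1 and H1-6 these were H2AC1 and H2BC1, the back-to-back pair that encodes testis forms of H2A and H2B, and H4C6, H4C7, H3C11 and H4C13. H2BC1 had no region in any of the 30 libraries by either caller, and H2AC1 had 1 domain, of MTF2 in shDPPA2+4. Their promoters hold the TATA box letters, CCAAT and the octamer, as does that of H2BC11, so that these letters were present at unbound as well as bound promoters. H4C7 has the TATA box letters, and H4C6 and H1-6 have CCAAT.

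By MACS2, promoters with a single protein were no rarer among histone genes than among all genes. DPPA2 alone was called at 6 promoters (8.82%, against 7.18% of all and 8.5% of those of intermediate CpG content). These were H3C3, H4C3, H4C5, H2BC12, H2AC12 and H4C12, with folds between 4.59 and 8.49. DPPA4 alone was called at 8 (11.8%, against 7.85% and 11.6%), those of H2AC21, H2BC4, H2AC6, H2BC6, H4C4, H2BC10, H2BC13 and H2AC13, with folds between 4.58 and 6.98. With the ab154642 antibody, each of the 6 promoters with DPPA2 alone had a DPPA4 peak, from 4.07-fold at H2BC12 and H2AC12 to 9.60-fold at H4C12. By EPIC2, each of them also had a domain of the N-terminal DPPA4 antibody. Of the promoters with DPPA4 alone, H2AC21, H2BC4, H2AC6, H2BC10, H2BC13 and H2AC13 had an EPIC2 domain of DPPA2. Its log2 fold lay between 1.31 (H2BC13 and H2AC13) and 4.63 (H2BC10). Only H2BC6 and H4C4 had none.

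**Figure D2:**
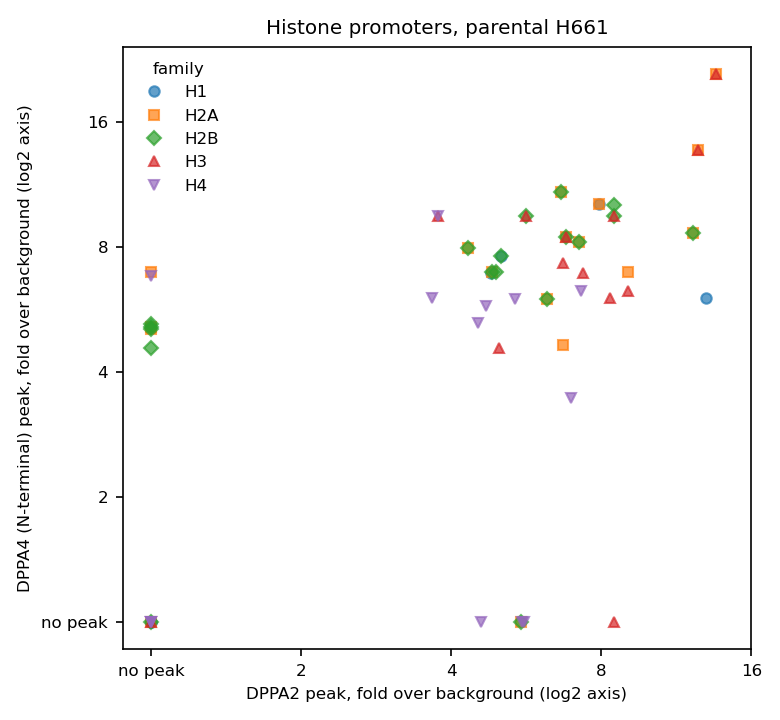
Fold over background of the highest MACS2 peak of DPPA2 (horizontal, log2 axis) and of DPPA4 with the N-terminal antibody (vertical, log2 axis) at each histone promoter in parental H661, coloured by family, with promoters lacking a peak set at the position marked no peak. Genes that share a peak fall on the same point. H3C14 and H2AC18 stand highest (13.6 and 20.9), in a repeat where reads cannot be assigned to a single copy, and 8 promoters have a MACS2 peak of neither protein.

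Within the clusters the peaks lay mostly at the histone genes. Of 33 DPPA2 peaks across the largest chromosome 6 cluster, 27 touched a histone promoter, 0 touched the promoter of another protein-coding gene alone and 6 lay outside promoters. Of 35 DPPA4 peaks there, 28 touched a histone promoter and 7 lay outside promoters. The 7 other protein-coding genes in this stretch are the sodium and phosphate transporter genes SLC17A1 to SLC17A4, TRIM38, HFE and ENSG00000282988, and 1 of their 7 promoters had a DPPA2 peak and 1 a DPPA4 peak, in peaks that also touched a histone promoter. Around each histone promoter with a DPPA4 peak the summit lay at a median of 180 bp from the TSS, positive meaning downstream, and over all promoters at -152 bp. The corresponding medians for DPPA2 were 190 and -108 bp. Without the sign, DPPA4 summits lay at a median of 460 bp from the TSS at histone promoters and 282 bp at all promoters, and DPPA2 summits at 446 and 345 bp. Summits within 500 bp of the TSS were found at 30 of the 54 and 30 of the 52 promoters.

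The hairpin lines were then used to place the Polycomb proteins and EP300 on the same promoters. In the water arm, EPIC2 domains (FDR below 0.05, log2 fold over IgG above 1) of DPPA4 touched 61 histone promoters in shDPPA4 (background 71.7%) and 57 in shDPPA2+4 (67.7%). RING1B domains touched 55 (80.9%, background 63.7%) and 53 (77.9%, background 60.0%). PCGF1 domains, although few in all, touched 49 (72.1%, background 25.7%) and 43 (63.2%, background 24.3%). EP300 domains touched 42 (61.8%, background 50.1%) and 52 (76.5%, background 52.5%). The PCGF1 and EP300 counts depended on the caller, since MACS2 peaks of PCGF1 touched 15 (background 5.34%) and 2 (background 2.11%), and those of EP300 22 (background 34.4%) and 57 (background 42.5%). Against promoters of intermediate CpG content the gap was smaller for some proteins. Among these, DPPA4 was present at 83.5% and 79.9%, RING1B at 75.4% and 70.8%, EP300 at 58.7% and 61.5%, and PCGF1 at 27.9% and 24.3%. Domains of DPPA4, RING1B, PCGF1 and EP300 together were present at 36 histone promoters in shDPPA4 (background 22.8%) and at 41 in shDPPA2+4 (background 20.9%).

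MTF2 domains were rare at the histone genes. They touched 6 histone promoters in shDPPA4 (8.82%, background 61.5%) and 10 in shDPPA2+4 (14.7%, background 62.1%). Among all promoters of intermediate CpG content the share was 68.6% and 68.5%. By MACS2, MTF2 peaks touched 2 histone promoters, those of H3C1 and H4C1, in shDPPA4 (background 50.7%) and 5 in shDPPA2+4 (background 51.1%). MTF2 had more reads in its domains than RING1B in both lines. A domain is called relative to IgG, and IgG reads per kb under RING1B domains were higher at histone promoters than at all promoters. MTF2 reads are not given where no domain was called. The part of the IgG level in the lack of MTF2 domains was not tested. Of the promoters with a RING1B domain, 84.9% of all promoters in shDPPA4 also had an MTF2 domain, but only 6 of the 55 histone promoters (10.9%), and in shDPPA2+4 the figures were 86.0% and 9 of 53 (17.0%). RING1B and PCGF1 domains without an MTF2 domain were called at 44 histone promoters in shDPPA4 (64.7%, background 3.55%) and at 36 in shDPPA2+4 (52.9%, background 3.17%). This class joins calls against different controls, as PCGF1 was set against another IgG library than RING1B and MTF2. It also depends on the caller for PCGF1 and on the fold limit for RING1B.

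The MTF2 domains that did touch histone promoters were small. H3C1 and H4C1 shared the longest, with 40 reads over 6 IgG reads in shDPPA4 (log2 fold 1.42) and 100 over 8 in shDPPA2+4 (2.08). H3C7 and H2BC9 were the only other histone genes with an MTF2 domain in both lines, with 18 reads over 3 IgG reads and 30 over 4. H4C4 and H4C9 had a domain in shDPPA4 only, and H3C2, H2AC4, H1-3, H4C12, H3C12 and H2AC1 in shDPPA2+4 only. The IgG control was the same for MTF2, RING1B, DPPA4 and EP300 within each line, as all 773 and 544 domains with identical ends in the MTF2 and RING1B lists had the same IgG count. PCGF1 was set against another control. Its domains at histone promoters were small too, from 12 reads over 0 IgG reads (H1-3) to 53 over 5 (H2AC11) in shDPPA4. In shDPPA2+4 they ranged from 10 reads over 1 (H3C1) to 42 over 6 (H4C5).

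Domains at histone promoters had lower folds over IgG than domains at all promoters, for DPPA4 as well as for the Polycomb proteins and EP300. The median fold of DPPA4 domains was 5.91 at histone promoters and 10.8 at all promoters in shDPPA4, and 9.4 and 11.4 in shDPPA2+4. In shDPPA4 the median fold of RING1B domains was 3.5 at histone promoters and 7.26 at all promoters, and in shDPPA2+4 it was 4.25 and 6.10. Reads per kb were higher at histone promoters (median 62.8 against 43.8, and 43.1 against 36.0), and so were the IgG reads per kb under these domains (8.57 against 3.33, and 7.18 against 5.00). The part of the IgG level in these folds was not tested. For PCGF1 the median folds were 4.85 against 5.52 and 4.11 against 6.01. A limit of log2 fold above 2 left RING1B at 23 histone promoters in shDPPA4 (33.8%, background 54.2%) and 28 in shDPPA2+4 (41.2%, background 46.3%), so that the histone share then lay below that of all promoters. PCGF1 was left at 36 (52.9%, background 18.1%) and 22 (32.4%, background 16.6%).

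H2AC25 and H2BC26 had the densest DPPA4 domain in both lines, with 270 reads per kb in shDPPA4 and 124 in shDPPA2+4, and carried RING1B (66.2 and 28.7 reads per kb), PCGF1 (21.5 and 31.1) and EP300 (56.1 and 61.5) with no MTF2 domain. H2BC11 and H2AC11 came next in shDPPA4 with 209 reads per kb of DPPA4, and had 113 in shDPPA2+4. By MACS2 fold, the H4C9 promoter was highest for DPPA4 and RING1B in shDPPA4, at 33.3-fold and 17.2-fold. In shDPPA2+4 it was highest for RING1B at 13.7-fold and had 22.3-fold for DPPA4, behind H2BC13 and others at 25.6-fold. The testis pair H2AC1 and H2BC1 and the linker gene H1-1 had no DPPA4, RING1B, PCGF1 or EP300 domain in either line. In the water arm H1-6 had a DPPA4 domain of 30 reads per kb in shDPPA4 and none in shDPPA2+4, where a domain of 20 reads per kb was called with doxycycline.

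**Figure D3:**
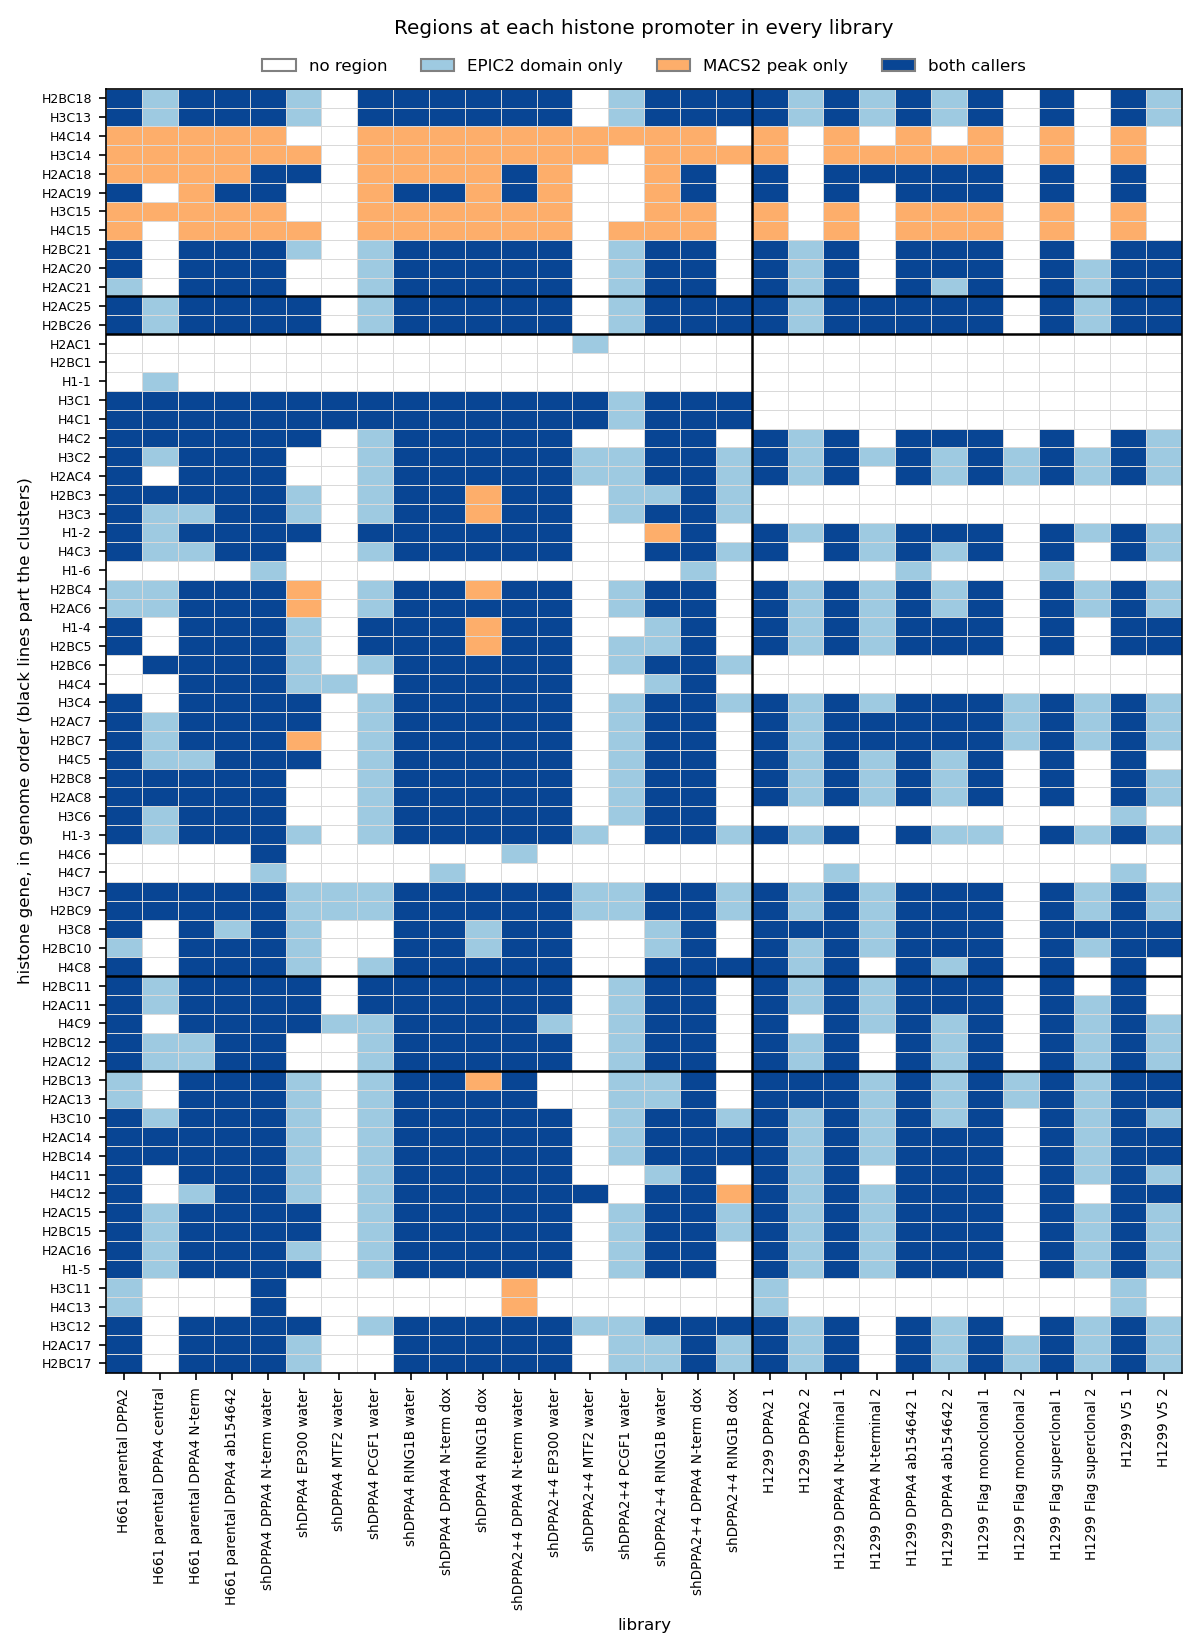
Histone genes in genome order (rows) against the 30 libraries (columns), coloured by whether an EPIC2 domain, a MACS2 peak, both or no region touched the promoter, with 1 library per column and no error bars. The MTF2 columns are almost empty, H2AC1, H2BC1 and H1-1 have almost no regions, and H3C1, H4C1, H2BC3, H3C3, H2BC6 and H4C4 are filled in H661 lines and empty in H1299.

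The chromosome 1 cluster gave different answers with the 2 callers. H4C14, H3C14, H3C15 and H4C15 had no EPIC2 domain in any of 30 libraries but a MACS2 peak in 21, 24, 20 and 21 of them. These genes, with H2AC18 and H2AC19 between them, form an inverted repeat, in which 75.6% to 100% of each promoter window has a copy at least 99% identical elsewhere on chromosome 1 or 6. The other 62 histone promoters had 0% by this measure. Reads from such copies cannot be assigned to one of them, and values of H3C14 and H3C15, or of H2AC18 and H2AC19, are therefore not independent. The part of multiple mapping in the difference between callers was not tested.

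Lists of related genes did not share the lack of MTF2 domains. Of 23 genes for the histone locus body, histone mRNA processing, S phase entry and histone chaperones, 14 carried DPPA2 and DPPA4 in parental H661 (background 39.2%). Among them were NPAT (6.79-fold and 9.99-fold), SLBP, which binds the stem-loop (5.66-fold and 5.71-fold), and HINFP, an activator of H4 genes (7.84-fold and 14.6-fold). MTF2 domains touched 20 of the 23 in each hairpin line. PCGF1 domains touched 9 and 11 of them (background 25.7% and 24.3%), and RING1B domains 23 and 22 (background 63.7% and 60.0%). Of 13 other histone genes, listed as replacement histones, 7 carried DPPA2 and DPPA4 in parental H661 (background 39.2%), including H3-3A (9.06-fold and 7.61-fold). MTF2 domains touched 9 and 10 of the 13. This list also holds H2AX and H4C16, and the name of H4C16 starts like those of the members, so it is not purely of replacement histones. Both lists are short and are set beside the background, which was 61.5% and 62.1% for MTF2, without a test.

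To see whether binding at these genes changed when DPPA4 or DPPA2 and DPPA4 were depleted, reads in the domains were compared between the doxycycline and water arms, per kb of domain and per library read, over groups of promoters that share domains. Domains were called separately in each arm and differed in width, so that a narrower domain has a higher density for the same binding, and the change in total reads of the domains is given too. Neither measure is a change over a fixed region. For DPPA4 in shDPPA4 the median log2 change in density was -0.33 over 28 histone groups (quartiles -0.43 and -0.12), against -0.37 over all promoters, while the median domain width went from 4.75 to 3.05 kb and all 28 groups became narrower. The median change in reads was -0.83, against -1.39 over all promoters, and was below 0 at 28 of 28 groups. In shDPPA2+4 the density change was -0.72 over 32 groups (quartiles -0.82 and -0.49), against -0.63, with widths of 4.25 and 3.2 kb, and the change in reads was -0.97, against -1.16. A log2 density change below -1 was seen at 0 of 28 groups in shDPPA4 (background 8.12%) and at 2 of 32 in shDPPA2+4 (background 19.5%). Each arm is 1 library, with no test. Without the scaling for library size the density median in shDPPA2+4 turned to 0.22, and that over all promoters to 0.32.

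Single genes showed how far width and reads can part. H3C1 and H4C1 held 231 DPPA4 reads in both arms of shDPPA2+4, in a domain of 2.1 kb with water and 3 kb with doxycycline, and the scaled change was -1.46 in density and -0.95 in reads. At H1-2 in shDPPA4 the reads went from 523 to 219 and the width from 4 to 2.3 kb, with scaled changes of 0.38 in density and -0.42 in reads. H2BC3 and H3C3 were lowest in shDPPA4 by both measures, from 737 reads over 5.7 kb to 94 reads over 2.5 kb, a change of -0.95 in density and -2.14 in reads. DPPA4 domains were called with water and not with doxycycline at 5 of 61 histone promoters in shDPPA4 (background 21.0%), namely H2AC18, H1-6, H4C6, H3C11 and H4C13, and at 1 of 57 in shDPPA2+4 (background 9.84%), H4C6.

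With library sizes scaled, RING1B was lower with doxycycline at each histone group that kept a domain, by density and by reads. In shDPPA4 the median log2 change in density was -0.59 over 29 groups (quartiles -0.82 and -0.33), against -0.27 over all promoters, of which 75% were lower. The change in reads there was -0.51, against -0.02, with widths of 2.8 kb in water and 2.4 kb with doxycycline. In shDPPA2+4 the change in density was -0.91 over 16 groups (quartiles -1.11 and -0.77), against -0.69, of which 94.2% were lower. The change in reads was -1.78, against -0.69, and 15 of the 16 groups became narrower, from a median of 2.25 to 1.25 kb. A density change below -1 was seen at 4 of 29 groups (background 4.77%) and 7 of 16 (background 22.6%). H2BC12 and H2AC12 in shDPPA4 went from 208 reads over 3.4 kb to 17 reads over 0.5 kb, and H2AC15 and H2BC15 in shDPPA2+4 from 131 reads over 3 kb to 18 over 0.9 kb.

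The RING1B difference depended on the scaling and on the weak domains. Without scaling, density was lower at 20 of 29 groups and higher at 9 in shDPPA4 (median -0.23, against 0.08 over all promoters), and lower at 15 of 16 in shDPPA2+4 (-0.22, against 0.00). With domains of log2 fold above 2 alone, the scaled medians at histone promoters were -0.08 and -0.57, and those over all promoters -0.24 and -0.66, so that histone promoters no longer stood lower.

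Fewer histone promoters had a RING1B domain with doxycycline. The doxycycline list touched 48 in shDPPA4 (background 65.7%) and 25 in shDPPA2+4 (background 48.6%), while DPPA4 in that arm still touched 56 (background 56.8%) and 57 (background 61.4%). In shDPPA2+4, 28 of 53 histone promoters with a RING1B domain in water had none with doxycycline (52.8%, background 22.8%), and by MACS2 37 of 49 had no peak left (75.5%, background 52.1%). H2BC11 and H2AC11, with a RING1B domain of 50 reads per kb in water, were among those without a region by either caller. Neighbours that share a domain are counted separately here, as for H2BC21, H2AC20 and H2AC21, which shared 1 RING1B domain in water. The distinct domains lost are therefore fewer than the promoters. In shDPPA4 the callers differed. By EPIC2, 7 of 55 had no domain with doxycycline (12.7%, background 3.93%), namely H2AC19, H2BC3, H3C3, H2BC4, H1-4, H2BC5 and H2BC13. All 7 had a MACS2 peak with doxycycline, and by MACS2 only 2 of 60 had no peak left, H3C8 and H2BC10 (3.33%, background 22.2%), so that the comparison with all promoters turned round. A domain with a low fold in water lies nearer the limit of the list, and the median fold in shDPPA2+4 water was 4.25 at histone promoters and 6.10 at all promoters. The part of this in the losses was not tested.

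**Figure D4:**
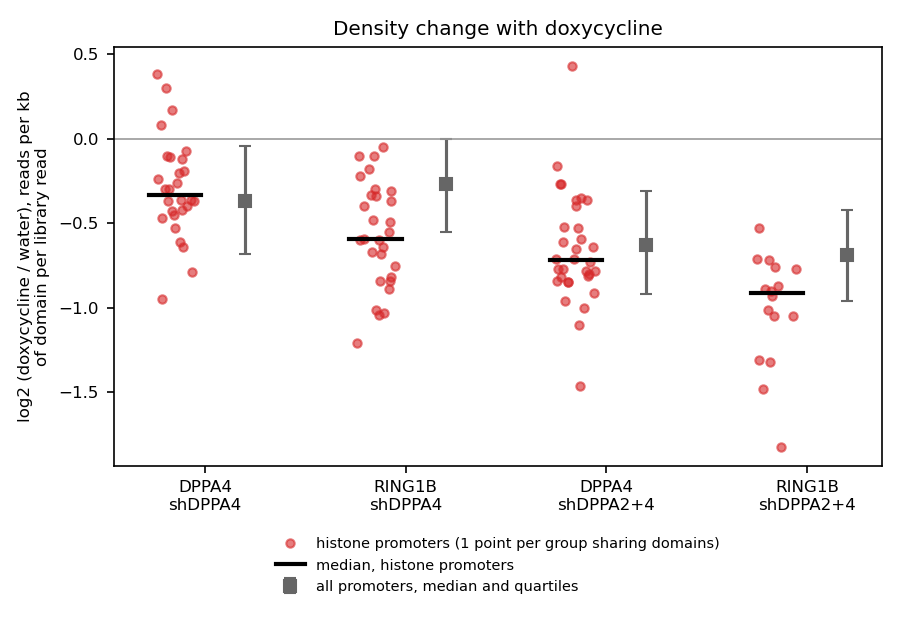
Log2 ratio of reads per kb of domain per library read, doxycycline over water, for each group of histone promoters that shares domains in both arms (red points, with the median as a black line) beside the median and quartiles over all promoters (grey squares). Each arm is 1 library. Domains were called separately in each arm and differ in width. All RING1B points lie below 0 with this scaling, with medians of -0.59 and -0.91 against -0.27 and -0.69 over all promoters.

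In H1299, domains of the antibodies against the introduced proteins or their tags also touched histone promoters more often than promoters at large. All H1299 libraries came from cells given doxycycline. The signal of these antibodies without the introduced proteins could therefore not be assessed. Domains of the DPPA2 antibody touched 51 and 45 of 68 in the 2 replicates (75% and 66.2%), against backgrounds of 62.8% and 42.5%. Those of the N-terminal DPPA4 antibody touched 50 and 35 (against 64.3% and 37.6%), of ab154642 50 and 49 (56.7% and 49.6%) and of V5 53 and 43 (65.2% and 53.0%). The Flag monoclonal antibody touched 49 and 9 (59.4% and 5.27%) and the Flag superclonal antibody 50 and 34 (58.9% and 33.8%). The histone share was above the share of all promoters in 12 of 12 libraries, by 7.96 to 23.7 percentage points. It was above the share of all promoters of intermediate CpG content in 11 of 12, by between -2.59 points in replicate 1 of the N-terminal DPPA4 antibody (73.5% and 76.1%) and 21.66 points in replicate 2 of DPPA2 (66.2% and 44.5%). In replicate 1 of DPPA2 and of V5 it was higher by 1.91 and 1.48 points. Replicate 2 of the Flag monoclonal antibody stood apart, with 48262 reads in its domains against 184439 to 3025428 in the others.

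No difference beyond the spread between libraries was found between DPPA2-directed and DPPA4-directed antibodies. The 6 DPPA2-directed libraries (DPPA2 and both Flag antibodies) averaged 58.3% ± 23.9 (SD, n = 6) of histone promoters and the 6 DPPA4-directed libraries 68.6% ± 9.70 (SD, n = 6), a difference of -10.29 points (two-sided exact permutation test over 12 libraries, p = 0.435, adjusted over 2 tests 0.870, where the smallest possible p is 0.00216). Without replicate 2 of the Flag monoclonal antibody the difference was -1.27 points. Relative to all promoters of the same library, the histone share was higher by 14.6 ± 5.27 and 14.2 ± 4.88 points (SD, n = 6 each), a difference of 0.34 (exact permutation p = 0.903, adjusted 0.903). Within replicate 1 the 6 libraries averaged 74.3% ± 2.03 and within replicate 2 52.7% ± 21.1 (SD, n = 6 each).

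**Figure D5:**
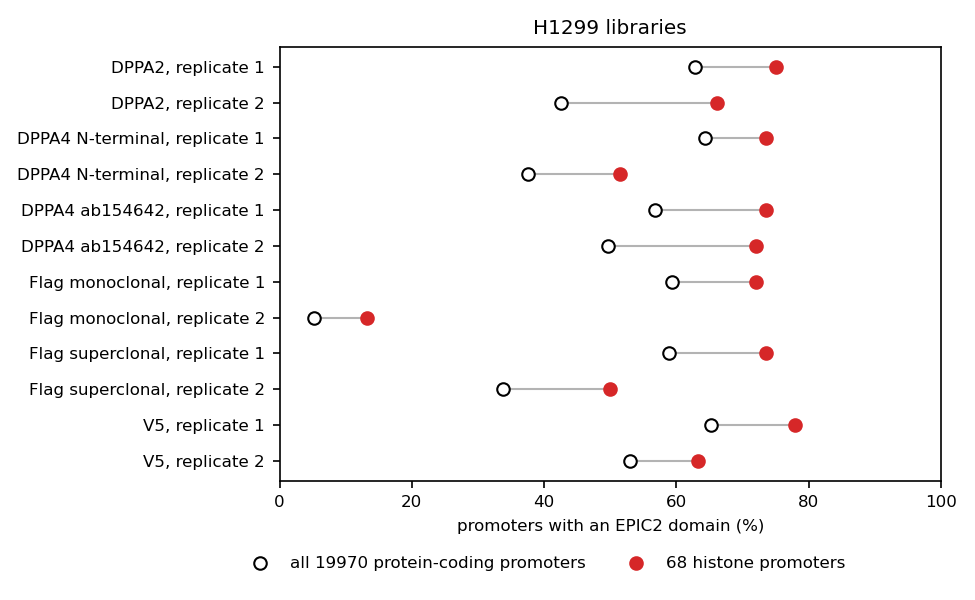
Percentage of the 68 histone promoters (red) and of all 19970 protein-coding promoters (open) with an EPIC2 domain in each of the 12 H1299 libraries. The histone share is the higher one in each library, and replicate 2 of the Flag monoclonal antibody is lowest in both respects (13.2% and 5.27%).

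Domains found in both replicates of DPPA2 touched 44 histone promoters (64.7%, background 42.1%), those of DPPA4 37 (54.4%, background 37.9%) and both proteins 34 (50.0%, background 31.0%). By MACS2 the last count was 0, where the second replicates of DPPA2 and DPPA4 had 2336 and 2353 peaks in all. These 34 comprised 3 H1, 9 H2A, 12 H2B, 6 H3 and 4 H4 promoters. Promoters with both proteins in H661 and in H1299 numbered 27 (39.7%, background 23.4%), out of 46 in H661 and 34 in H1299. The 46 rest on MACS2 peaks in single libraries and the 34 on EPIC2 domains found in both replicates. H4C14, H3C14, H3C15 and H4C15, which had no EPIC2 domain in any library, are in the 46 and could not be in the 34. The 27 included H1-2, H1-4, H1-5, H3C2, H3C4, H3C7, H3C8, H4C2, H4C11, H2BC11, H2AC11, H2AC25 and H2BC26. At H1-2, for instance, the DPPA2 replicates had 96.1 and 39.6 reads per kb and the DPPA4 replicates 148 and 34.4, and at H1-5 68.1 and 34.7, and 124 and 30.0.

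Some histone genes were bound in H661 only. Of 52 histone promoters with a domain in each of 5 H661 libraries without doxycycline (DPPA2, DPPA4 N-terminal and ab154642 in parental cells, and DPPA4 in the water arm of both hairpin lines, leaving out the sparse central-region library), 4 had neither a domain nor a peak in any of the 12 H1299 libraries (7.69%, background 2.83%). These were H3C1, H4C1, H2BC3 and H3C3, a set chosen after their values were seen. H3C1 and H4C1 shared DPPA4 domains in the hairpin lines, and so did H2BC3 and H3C3, so the 4 promoters are not independent. H3C1 and H4C1 had a domain of every protein in all 18 H661 libraries, and H2BC3 and H3C3 in 15. H2BC6 and H4C4, with domains in 15 and 12 H661 libraries, also had none in H1299, and H3C6 had 14 in H661 and 1 in H1299. Genes between them were not alike: H4C2, H3C2 and H2AC4, which lie between H4C1 and H2BC3, had domains in 9, 12 and 11 of the 12 H1299 libraries. The cell line and the source of the proteins, endogenous in H661 and introduced in H1299, cannot be told apart in this comparison.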

How the data were processed

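The authors trimmed reads with Trim Galore (0.6.6 per the processing notes), aligned them to hg38 with BWA (0.7.13) and called regions for each library against an IgG library with MACS2 (2.27.1) and EPIC2. File names set all parental H661 libraries, the mouse DPPA2 antibody included, against rabbit IgG. The deposited EPIC2 files hold whole-number read counts of library and IgG per domain, a log2 fold change, a p-value and FDR, and a score equal to the log2 fold change times 100. The deposited MACS2 files hold a fold enrichment (a ratio), −log10 p-values and q-values, and a whole-number score made from the q-value. Only regions that met the study's own limits (FDR under 0.05, log2 fold over 1) were used here, without its blacklist. MACS2 was used for parental H661 and EPIC2 elsewhere. Library sizes relative to the shared IgG followed from the log2 fold changes. The libraries' full depth is unknown, and EPIC2 domains held 48262 to 6850681 reads per library after these limits. H1299 groups were compared by exact permutation over libraries, in Python with scipy 1.17.1. The code was tested on simulated data. The members, gene lists and tests were chosen with earlier results of these data known. Genes named are the highest members, those without regions, all H1 genes and the chromosome 1 genes. Alternatives were the other caller, a TSS ± 500 bp window, other fold limits, other scalings and left-out libraries.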

Additional observations from a re-analysis of the deposited data

How the results depend on the processing

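The counts in parental H661 stayed within 1.5 times of those given with EPIC2 domains, a TSS ± 500 bp window and other fold limits, and with the ab154642 antibody. The central-region antibody gave 15 DPPA4 and 14 DPPA2/4 histone promoters. With MACS2, PCGF1 was at 15 and 2 histone promoters (shDPPA4 and shDPPA2+4), MTF2 at 2 and 5, EP300 at 22 in shDPPA4, and DPPA2/4 in both H1299 replicates at 0. With a log2 fold above 2, RING1B was at 23 and 28 (54.2% and 46.3% of all promoters), PCGF1 at 22 in shDPPA2+4 (16.6% of all), MTF2 at 0 and 5 (47.7% and 44.8% of all), EP300 at 22 in each line (35.2% and 32.9% of all) and DPPA2/4 in H1299 at 9. The cause was not tested. Without scaling of library sizes, the median DPPA4 change with doxycycline was -1.16 in shDPPA4 and turned to 0.22 in shDPPA2+4, and the RING1B change was -0.23 and -0.22. Relative to the median over all promoters, it was 0.04 (turned) and -0.09 for DPPA4 and -0.22 for RING1B in shDPPA2+4. With a log2 fold above 2, the RING1B change was -0.08 and -0.57. By 2 alternatives chosen after seeing the data, the change in reads not divided by width was -0.83 for DPPA4 in shDPPA4 and -1.78 for RING1B in shDPPA2+4, and histone promoters left without a MACS2 peak with doxycycline numbered 3 and 2 for DPPA4 (5 and 1 by EPIC2) and 2 for RING1B in shDPPA4 (7 by EPIC2). With the replicate block, in which labels were permuted within a replicate number, the H1299 difference stayed at -10.29 points (exact permutation p = 0.265) and the relative one at 0.34 (p = 0.900). Leaving out 1 library, or 1 replicate number, gave -19.12 to -1.27 and -1.49 to 1.99 points, and MACS2 gave -3.93 for the relative difference (exact permutation p = 0.595). None of these passed 0.05. Domains held only 48262 to 801969 reads in the second H1299 replicates and 177449 and 185445 for PCGF1, and a promoter without a region in these libraries may lie under their detection limit.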
